A study of Caenorhabditis elegans with 15 samples.

Results

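The genes described here encode the secreted peptide messengers of Caenorhabditis elegans. They are the FMRFamide-like peptide genes (flp), the other neuropeptide-like protein genes (nlp) and the insulin-like peptide genes (ins and daf-28). Members were the rows of the deposited gene table whose name starts with flp-, nlp- or ins- followed by a number, together with daf-28. The genes nlp-27, nlp-28, nlp-29, nlp-30, nlp-31 and nlp-34 were left out. This gave 141 of 20191 genes, of which 31 were flp, 70 nlp and 40 insulin-like.

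Neuropeptides are made as long precursors that pass through the secretory pathway, are cut at pairs of basic residues, trimmed and often amidated, and are stored in dense-core vesicles. After release they act mostly on G protein-coupled receptors, and they tune feeding, locomotion, sleep, egg laying and defecation in the worm. The insulin-like peptides act on the single insulin receptor DAF-2, some as agonists and some as antagonists, and so bear on the FOXO factor DAF-16, dauer formation, fat storage and lifespan. Many of these genes are transcribed in few neurons, and some also in the intestine or the hypodermis.

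The study sequenced messenger RNA from whole worms on day 1 of adulthood, grown under standard conditions without stress. The double mutant atfs-1(tm4525); fndc-1(rny14), the fndc-1(rny14) single mutant and the wild-type strain N2 each had 5 libraries. FNDC-1 is a mitophagy receptor on the outer mitochondrial membrane, and ATFS-1 is a transcription factor that drives the unfolded protein response of mitochondria. Both mutant strains carry fndc-1(rny14), and no strain carried atfs-1(tm4525) alone, so what sets the double mutant off from fndc-1 and what the atfs-1 allele would do by itself cannot be told apart. In RNA from whole worms, fewer or smaller cells of a type and less RNA per cell cannot be told apart.

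Total counts were 46984106 to 61921123 per library, and 15032 genes passed the filter on low counts. Levels are given as CPM, counts per 1000000 of the TMM-scaled library total. The fndc-1 gene had 7.04 to 10.2 CPM in the double mutant, 7.26 to 7.53 CPM in fndc-1 and 36.8 to 47.2 CPM in wild type. The atfs-1 gene had 68.3 to 80.0, 87.8 to 99.2 and 96.8 to 109.8 CPM in the same order. Double-mutant libraries 2 and 4 lay farthest out on the second and the first principal component. The wild-type libraries also split, with sperm scores of 0.82 and 0.52 in libraries 2 and 4 and of -1.97 to -1.86 in libraries 1, 3 and 5, on opposite sides of 0 on the first component. Double-mutant library 4 had the highest score of the 15 libraries for sperm and for hypodermis and cuticle markers (2.41 and 2.78, as mean centred log2 CPM). Double-mutant library 2 departed from the others by gene length, as described next to the members' values.

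Peptide genes were detected almost completely but mostly at low levels. At least 1 count was present for 140 of 141 members, the exception being ins-38. The filter was passed by 30 of 31 flp genes, 63 of 70 nlp genes and 24 of 40 insulin-like genes, together 117 members. None of the 24 members left untested averaged above 0.180 CPM. Over all libraries 7 members averaged above 10 CPM, 69 lay between 1 and 10 CPM and 65 below 1 CPM. The median member had 3.36 CPM among flp, 1.68 CPM among nlp and 0.364 CPM among insulin-like genes.

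To compare genes, CPM was divided by the length of the merged exons, which was known for 134 of 141 members. Among nlp genes the highest level was that of nlp-40, at 223 CPM per kb, an intestinal peptide gene that paces defecation. It was followed by nlp-36 (156 CPM per kb), by nlp-24 (118 CPM per kb), whose opioid-like peptides act in feeding during starvation, by nlp-33 (78.2 CPM per kb), which is induced in the epidermis by infection, and by nlp-26 (23.4 CPM per kb). The flp family was led by flp-28 (34.95 CPM per kb), flp-6 (29.7), flp-14 (20.2), flp-22 (18.7) and flp-24 (16.1). The insulin-like family had lower levels, with ins-34 (8.93 CPM per kb), ins-17 (8.29) and ins-27 (7.77) ahead of ins-19 (2.73) and ins-7 (2.64). No exon length was at hand for nlp-77, so it could not be ranked, and its CPM values are given below.

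**Figure D1:**
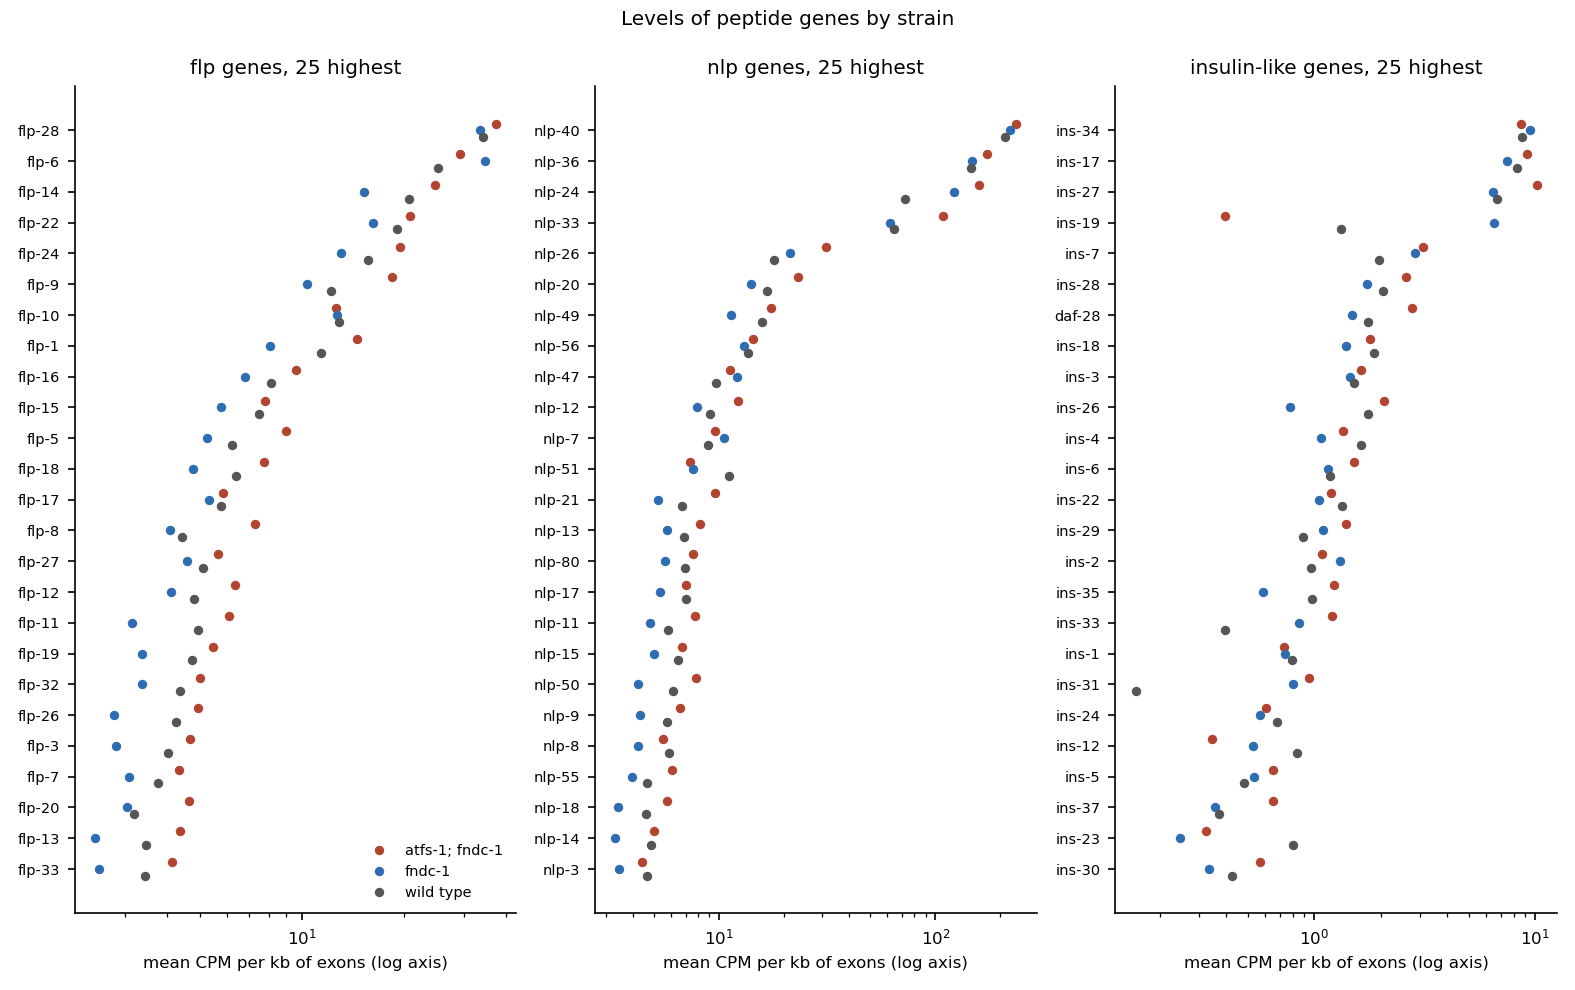
Mean level in each strain, as CPM per kb of merged exons on a log axis, of the 25 members of each family with the highest level over all libraries; each point is the mean of 5 libraries and the colours are the strains. The strain means of ins-19 lie far apart (0.396 CPM per kb in the double mutant, 6.48 in fndc-1 and 1.32 in wild type).

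The members share features that the choice of names did not use. They are short: the median was 532.5 exon bases (643 for flp, 533 for nlp and 429 for insulin-like genes), against 1164 over all genes with a length. Of the 134 members with a length, 128 had fewer than 1000 exon bases (95.5%, against 37.4% of all genes). The X chromosome carried 13 of 31 flp genes (41.9%) and 19 of 70 nlp genes (27.1%), but 2 of 40 insulin-like genes (5.0%), against 13.8% of all genes in the table. Insulin-like genes lay mostly on chromosomes II (16 genes) and I (10 genes).

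Neighbouring members formed 10 runs with gaps of at most 10 kb (WBcel235). The longest run, of 7 genes, was I:14012369-14037777 with ins-28, ins-29, ins-25, ins-27, ins-24, ins-30 and ins-26. A run of 6 at II:5988524-6011321 held ins-2, ins-3, ins-4, ins-5, ins-6 and ins-20. On X, flp-28, flp-3 and flp-2 lay within X:10087314-10095245, and nlp-45, nlp-22, nlp-23 and nlp-2 within X:2337600-2344766. In the X run of flp genes, flp-28 averaged 37.3 CPM per kb in the double mutant, 33.4 in fndc-1 and 34.2 in wild type. Its neighbour flp-2 averaged 3.3, 2.47 and 2.97 CPM per kb in that order. In the X run of nlp genes, nlp-2 passed the filter and nlp-22, nlp-23 and nlp-45 did not.

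The families moved together from library to library. A score was taken for each family as the mean centred log2 CPM of its tested genes. For flp genes it was 0.02, 0.72, -0.17, 0.44 and 0.25 in double-mutant libraries 1 to 5. In fndc-1 libraries 1 to 5 it was -0.13, -0.14, 0.02, -0.45 and -0.58, and in wild-type libraries 1 to 5 it was 0.32, 0.16, -0.23, 0.17 and -0.41. The nlp score ran close to it, with 0.04, 0.73, -0.18, 0.39 and 0.22 in the double mutant, -0.13, -0.06, -0.01, -0.36 and -0.55 in fndc-1, and 0.28, 0.15, -0.23, 0.10 and -0.40 in wild type. Each strain therefore held libraries on both sides of 0 or near it, and the strains overlapped.

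The insulin-like score was 0.01, 0.61, -0.23, 0.10 and -0.01 in the double mutant, 0.19, 0.23, 0.28, -0.22 and -0.62 in fndc-1, and 0.41, -0.14, -0.27, -0.08 and -0.26 in wild type. In fndc-1 libraries 1 to 3 it lay above 0, where the flp score was -0.14 to 0.02. The summed level of each family was highest in double-mutant library 2. It was lowest in fndc-1 library 5 for flp and insulin-like genes and in wild-type library 5 for nlp genes. The nlp genes together made up 1371 CPM in double-mutant library 2 and 776 to 994 CPM in the other 4 libraries of that strain, 663 to 850 CPM in fndc-1 and 560 to 797 CPM in wild type. Their median sum was 930 CPM in the double mutant, 841 CPM in fndc-1 and 665 CPM in wild type, while the median nlp score was 0.22, -0.13 and 0.10 in that order.

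Double-mutant library 2 was the highest library of its strain for 22 of 30 flp genes, 46 of 63 nlp genes and 16 of 24 insulin-like genes, against 30.03% of all genes tested. In fndc-1, libraries 4 or 5 were the lowest for 28 of 30 flp, 51 of 63 nlp and 16 of 24 insulin-like genes, against 46.4% of all genes. Other short genes moved the same way in library 2: the median of 4210 genes under 1000 exon bases, members left out, was 0.51 there and -0.07 to 0.03 in the other double-mutant libraries. The median of 720 genes of at least 4000 exon bases was -1.29 there, against 0.06 to 0.19. In fndc-1 libraries 4 and 5 the short genes were at -0.09 and -0.15, against -0.05 to -0.03 in the other 3 libraries of the strain, and the long genes were at 0.22 in both, against 0.04 to 0.09. In wild type the short genes ran from -0.12 in library 5 to 0.17 in library 1, and the long genes were at 0.21 and -0.21 in these libraries. Neuron markers, whose median length is 1946 exon bases, scored -0.45 in double-mutant library 2 and -0.10 to 0.38 in the other 4 libraries of that strain. The part of these length trends in the members' results was not tested beyond the values given with each comparison.

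**Figure D2:**
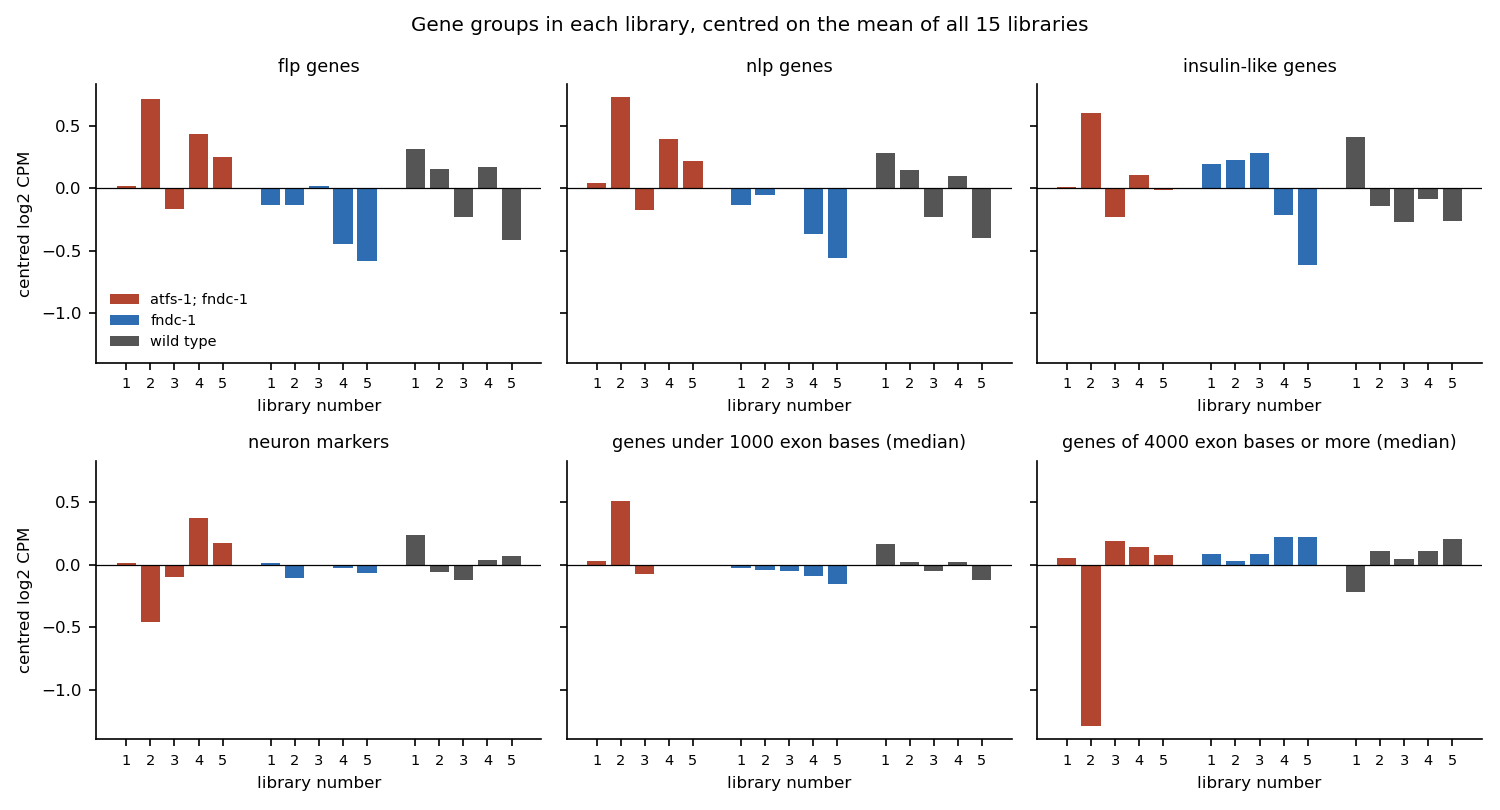
Centred log2 CPM of gene groups in each of the 15 libraries, as the mean over tested genes (upper row and neuron markers) or the median (both length groups, members left out of the short one); bars are libraries 1 to 5 of each strain. Double-mutant library 2 stands at 0.72 for flp genes and at -1.29 for long genes, and fndc-1 libraries 4 and 5 have the lowest flp and nlp scores of their strain.

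**Figure D3:**
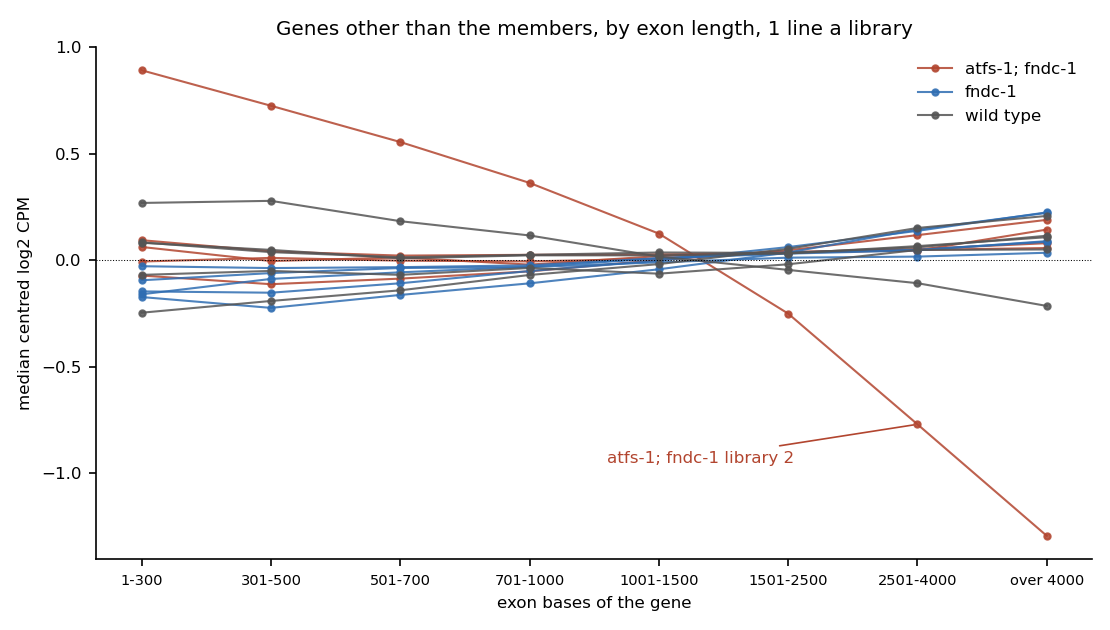
Median centred log2 CPM of genes other than the members (y axis), in classes of exon length (x axis), with 1 line for each of 15 libraries coloured by strain. Double-mutant library 2 falls with length, to -1.29 in the longest class, and wild-type library 1 has a weaker slope of the same direction, with -0.21 in that class.

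The double mutant was compared with wild type to find which members differ when both genes are mutated. Of 117 tested members 4 rose and 0 fell at an adjusted p under 0.05 (edgeR quasi-likelihood test, Benjamini-Hochberg over all genes), which is 3.42% of members, against 4.71% of all genes tested. The 4 were nlp-24, nlp-77, nlp-26 and ins-33. At an unadjusted p under 0.05 there were 15 members (12.8%, against 21.3% of all genes). Without wild-type library 1 there were 27 of 117 members, against 2804 of 15144 genes. Without double-mutant library 3 there were 29 of 118 members, against 3815 of 15156 genes. The strains did not overlap for 5 members, all higher in the double mutant (daf-28, nlp-26, nlp-77, nlp-24 and nlp-25), which is 4.27%, against 4.42% of all genes. With all libraries, the shares called and not overlapping were near those of all genes, and the share at an unadjusted p under 0.05 was below that of all genes. The last of these did not hold without wild-type library 1.

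The gene nlp-24 (V:11616376-11616828, plus strand) had 47.3, 103, 40.1, 58.4 and 50.5 CPM in double-mutant libraries 1 to 5, 49.4, 47.3, 48.1, 44.5 and 41.5 CPM in fndc-1, and 30.5, 31.9, 26.7, 25.6 and 21.1 CPM in wild type. All libraries of both mutant strains lay above all wild-type libraries. It rose in the double mutant against wild type by 1.14 on the log2 scale (SE 0.21, adjusted p = 0.00608, edgeR). That call held in every alternative run, with log2 fold changes of 0.74 to 1.27 and adjusted p from 1.19e-05 to 0.0496. Of its exon bases, 6.37% overlap glb-15 on the other strand, and the strand setting of the counting is not given in the sources used here.

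The gene nlp-77 had 415, 625, 382, 506 and 436 CPM in the double mutant, 364, 387, 404, 314 and 341 CPM in fndc-1, and 333, 227, 321, 197 and 229 CPM in wild type. Every double-mutant library lay above every wild-type library, and fndc-1 lay between, overlapping both. The rise against wild type was 0.85 on the log2 scale (SE 0.16, adjusted p = 0.00739, edgeR). With only these strains in the fit its adjusted p was 0.0503.

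Next came nlp-26 (V:19613461-19614534, plus strand), with 11.8, 18.3, 9.95, 9.63 and 10.95 CPM in the double mutant, 7.12, 7.92, 6.91, 10.8 and 8.60 CPM in fndc-1, and 9.13, 6.66, 8.87, 5.01 and 5.24 CPM in wild type. The double mutant did not overlap wild type, although its lowest library was close to the highest wild-type one. The rise was 0.80 (log2, SE 0.22, adjusted p = 0.0499, edgeR). It was lost without any 1 of the 5 double-mutant libraries, without fndc-1 libraries 1, 2, 3 or 5, and without wild-type libraries 2, 4 or 5, with adjusted p from 0.0378 to 0.129 over all 15 such fits. Its neighbour nlp-25, in the same run on chromosome V and outside the rule for named genes, had 0.259 to 1.36 CPM in the double mutant and 0.123 to 0.2396 CPM in wild type (log2 1.77, SE 0.51, adjusted p = 0.0638, edgeR).

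The insulin-like gene ins-33 (I:13637845-13639311, minus strand) had 0.642, 0.828, 0.307, 0.784 and 0.558 CPM in the double mutant, 0.224, 0.581, 0.579, 0.439 and 0.388 CPM in fndc-1, and 0.390, 0.261, 0.208, 0.0744 and 0.0985 CPM in wild type. These levels rest on 16 to 48 counts per double-mutant library, 11 to 29 per fndc-1 library and 4 to 19 per wild-type library. The lowest double-mutant library lay below the highest wild-type library. The rise was 1.601 (log2, SE 0.43, adjusted p = 0.0445, edgeR). It was lost without libraries 1, 2, 4 or 5 of the double mutant, or without libraries 2, 3, 4 or 5 of either other strain, with adjusted p from 0.0216 to 0.115 over the 15 fits.

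**Figure D4:**
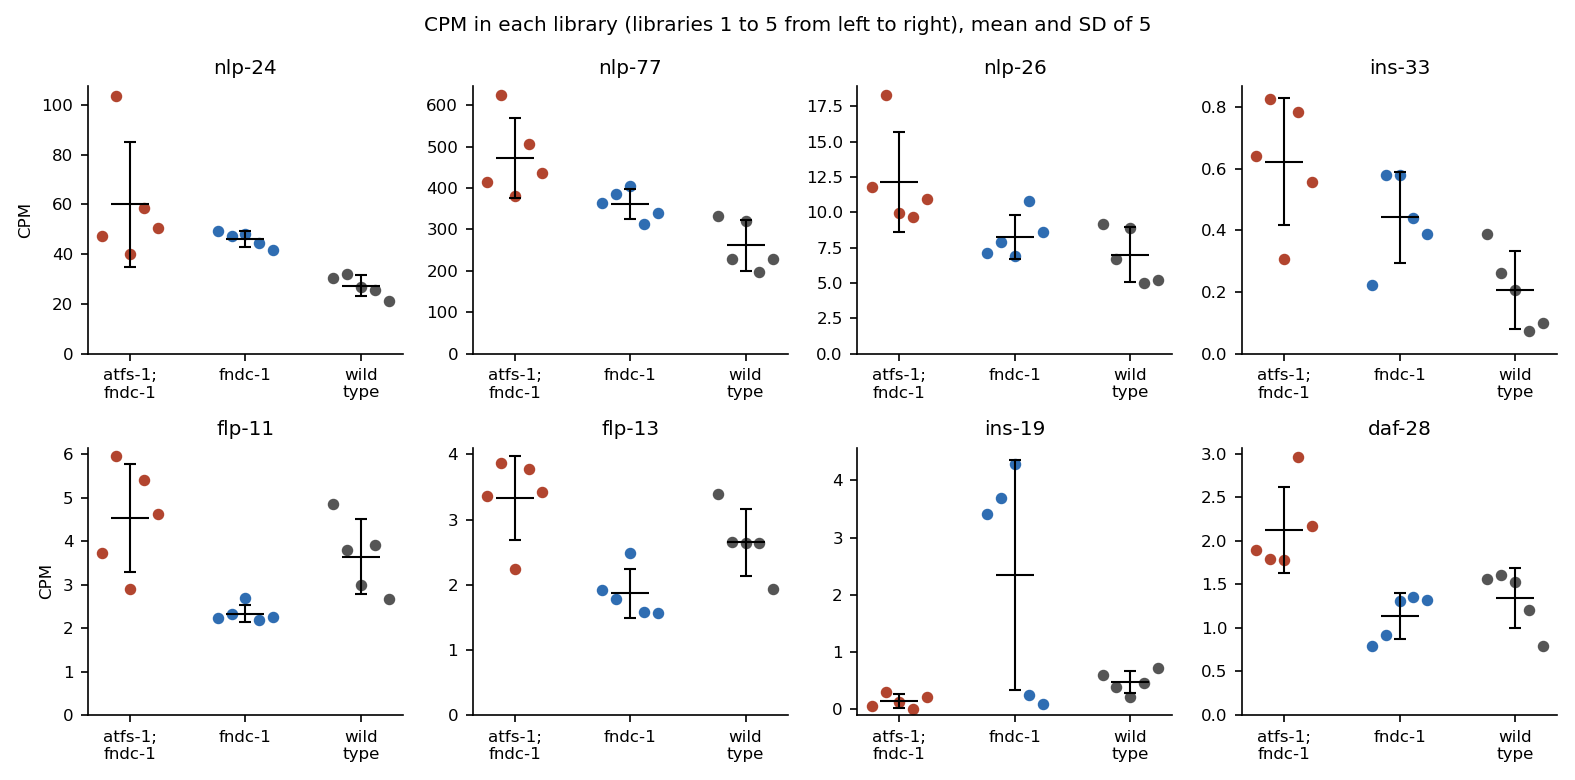
CPM of 8 members in each library of the 3 strains; points are libraries 1 to 5 from left to right within a strain, the horizontal mark is the mean and the bars are 1 SD (n = 5). For nlp-24 all 10 mutant libraries lie above all 5 wild-type libraries, and for ins-19 the fndc-1 libraries fall into 3 high ones (3.42 to 4.28 CPM) and 2 low ones (0.0970 and 0.246 CPM).

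By family, no flp gene passed the test for the double mutant against wild type. Log2 fold changes were above 0 for 29 of 30 flp genes, 57 of 63 nlp genes and 16 of 24 insulin-like genes, with medians of 0.24, 0.24 and 0.29, against 49.7% of all genes and a median of -0.0023 over all genes. Without double-mutant library 2 the medians were 0.09, 0.07 and 0.02. Without wild-type library 5 they were 0.15, 0.16 and 0.18, and without wild-type library 1 the insulin-like median was 0.44. Without double-mutant libraries 2 and 4 they were 0.00, 0.01 and -0.09, and 61 of 120 tested members lay above 0. With the length trend removed in each library they were 0.16, 0.14 and 0.19, with 86 of 117 members above 0. This removal did not reach the tested members without a known length, nlp-77 among them.

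Other members with studied roles missed the threshold. The agonist gene daf-28 (V:19815133-19816454, plus strand) had 1.89, 1.79, 1.78, 2.96 and 2.17 CPM in the double mutant, 0.793, 0.922, 1.30, 1.35 and 1.32 CPM in fndc-1, and 1.56, 1.61, 1.53, 1.21 and 0.788 CPM in wild type. The double mutant lay above both other strains in every library, with log2 0.66 against wild type (SE 0.23, adjusted p = 0.130) and 0.90 against fndc-1 (SE 0.23, adjusted p = 0.113, edgeR). For nlp-33 the double mutant had 29.6, 51.0, 22.8, 55.1 and 28.3 CPM, fndc-1 had 18.4 to 22.8 CPM and wild type 13.9 to 28.2 CPM (log2 0.75 against wild type, SE 0.25, adjusted p = 0.107, edgeR). For flp-8 the means were 5.21 ± 1.66 CPM in the double mutant, 2.91 ± 0.80 CPM in fndc-1 and 3.16 ± 0.88 CPM in wild type (SD, n = 5 each).

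The marker lists of other tissues were read in the same comparison. All 8 hypodermis and cuticle markers had a log2 fold change above 0 (median 0.99), and 1 of them passed the threshold: the adult cuticle collagen gene col-19 rose by 0.88 (SE 0.18, adjusted p = 0.0118, edgeR). Their summed level was 1366 to 2404 CPM in the double mutant, 1161 to 1467 CPM in fndc-1 and 790 to 1270 CPM in wild type, and none was at 0 in any library. Their score was 2.78 in double-mutant library 4 and -0.24 to 0.63 in the other libraries of that strain. The median score was -0.02 in the double mutant, -0.53 in fndc-1 and 0.09 in wild type, so by score the rise against wild type leaned on library 4. By summed level it did not, as the lowest double-mutant library (1366 CPM) lay above the highest wild-type library (1270 CPM). All 15 sperm markers lay above 0 (median 1.55, with 0 past the threshold), at summed levels of 81.8 to 417 CPM, 43.8 to 207 CPM and 18.5 to 135 CPM in that order, also with none at 0. The 18 neuron markers had a median of -0.02, with 8 above 0, 0 past the threshold, summed levels of 327 to 540 CPM, 512 to 549 CPM and 514 to 569 CPM, and none at 0. The part of these tissues in the members' results was not tested.

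The comparison of fndc-1 with wild type asks which members differ when fndc-1 alone is mutated. Of 117 tested members 0 passed the adjusted threshold in edgeR, against 1.87% of all genes. At an unadjusted p under 0.05 there were 16 (13.7%, against 14.9% of all genes). DESeq2 called 2 of 117 members, flp-11 and nlp-24, against 476 higher and 308 lower of 15032 genes. The strains did not overlap for 1 member, nlp-24, which was higher in fndc-1 (0.855% of members, against 4.0% of all genes for higher values). Its values above gave a log2 fold change of 0.76 (SE 0.21, adjusted p = 0.0773). Without double-mutant library 2, which belongs to neither strain compared, its adjusted p was the lowest of the leave-one-out fits, 0.00225.

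Log2 fold changes in fndc-1 against wild type were below 0 for 28 of 30 flp genes, 51 of 63 nlp genes and 16 of 24 insulin-like genes. The medians were -0.26, -0.28 and -0.08, against a median of 0.0034 over all genes, of which 49.4% lay below 0. Without fndc-1 library 5 they were -0.16, -0.19 and -0.03, with 82 members below 0. At an unadjusted p under 0.05 there were then 7 members, against 2054 of 15168 genes. Without wild-type library 1 the medians were -0.21, -0.16 and -0.03, with 8 of 117 members at that p, against 1870 of 15144 genes. Over all fits that left out 1 library the insulin-like median ran from -0.20 to -0.03. With the length trend removed the medians were -0.18, -0.19 and -0.01. The members that lay above 0 included flp-6 (0.46), nlp-40 (0.07), nlp-36 (0.01), nlp-7 (0.24), nlp-77 (0.47) and ins-7 (0.53), none of them past the threshold. The low libraries of fndc-1 were 4 and 5 for most of the others, as given above.

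Among flp genes the smallest p-values belonged to flp-11, flp-13 and flp-1, which act in sleep and locomotion. The gene flp-11, which encodes the main sleep-promoting peptide of the RIS neuron (X:4677334-4678129, minus strand), had 3.73, 5.97, 2.90, 5.42 and 4.64 CPM in the double mutant, 2.24, 2.33, 2.69, 2.18 and 2.25 CPM in fndc-1, and 4.86, 3.79, 3.00, 3.91 and 2.68 CPM in wild type. Its fndc-1 libraries were tightly grouped and overlapped wild type in 1 library of each strain (2.69 and 2.68 CPM). The log2 fold change against wild type was -0.64 (SE 0.20, adjusted p = 0.135, edgeR). For flp-13, a peptide of stress-induced sleep made by the ALA neuron, it was -0.51 (SE 0.19, adjusted p = 0.211), and for flp-1, which modulates locomotion from the AVK neurons, -0.50 (SE 0.21, adjusted p = 0.281). In the other families nlp-68 and ins-26 had the smallest p-values below 0, with log2 -0.69 (SE 0.23, adjusted p = 0.160) and -1.17 (SE 0.41, adjusted p = 0.178, edgeR). Beside these values, 14 of 15 sperm markers lay above 0 in fndc-1 against wild type (median 0.72) and 7 of 18 neuron markers did (median -0.05), with 0 past the threshold in either list, and their part in the members' results was not tested.

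The double mutant against fndc-1 gave the largest family medians of the 3 comparisons. Of 117 members 1, flp-11, rose past the adjusted threshold (0.855% of members, against 0.978% of all genes), by 0.96 on the log2 scale (SE 0.20, adjusted p = 0.0342, edgeR). All 5 double-mutant libraries lay above all 5 fndc-1 libraries for this gene, with wild type overlapping both. The call was lost without any 1 of the fndc-1 libraries, without double-mutant libraries 2, 4 or 5, and without wild-type library 2, with adjusted p from 0.00943 to 0.122 over the 15 fits. DESeq2 called 11 members, flp-11 among them.

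At an unadjusted p under 0.05 there were 54 members (46.2%, against 11.4% of all genes), of which 53 were higher in the double mutant. By family these were 19 of 30 flp, 30 of 63 nlp and 5 of 24 insulin-like genes. The strains did not overlap for 11 members, all higher in the double mutant (9.40%, against 2.67% of all genes). These were flp-11, flp-5, nlp-9, nlp-21, nlp-33 and daf-28, and, outside the rule for named genes, nlp-13, nlp-16, nlp-18, nlp-50 and nlp-55. Without double-mutant library 2 there were 37 members at an unadjusted p under 0.05, against 1821 of 15127 genes. Without double-mutant libraries 2 and 4 there were 17 of 120 members, against 1424 of 15234 genes. The excess of members over all genes was smaller without these libraries.

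The direction was above 0 for 28 of 30 flp genes, 59 of 63 nlp genes and 19 of 24 insulin-like genes, with medians of 0.59, 0.51 and 0.31, against 52.3% of all genes and a median of 0.02. Without double-mutant libraries 2 and 4 the medians were 0.30, 0.24 and 0.06, and 89 of 120 members lay above 0. With the length trend removed they were 0.40, 0.36 and 0.12, with 91 of 117 members above 0. Without double-mutant library 2 or fndc-1 library 5 the insulin-like median was 0.18 or 0.20. With all libraries, the mean in wild type lay between those of the double mutant (above) and fndc-1 (below) for 27 of 30 flp, 45 of 63 nlp and 10 of 24 insulin-like genes, against 14.5% of all genes tested. The upper part of this order leaned on double-mutant libraries 2 and 4. Without them 15 of 30 flp, 37 of 65 nlp and 9 of 25 insulin-like genes lay above 0 in the double mutant against wild type. Members of a family also moved together, so they are not independent counts. The double mutant against fndc-1 shares the fndc-1 libraries with the comparison above and the double-mutant libraries with the first. Over the same libraries 11 of 18 neuron markers lay above 0 (median 0.09), 7 of 8 hypodermis and cuticle markers (median 0.86) and 15 of 15 sperm markers (median 0.85), with 0 past the threshold in each list, and their part was not tested.

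**Figure D5:**
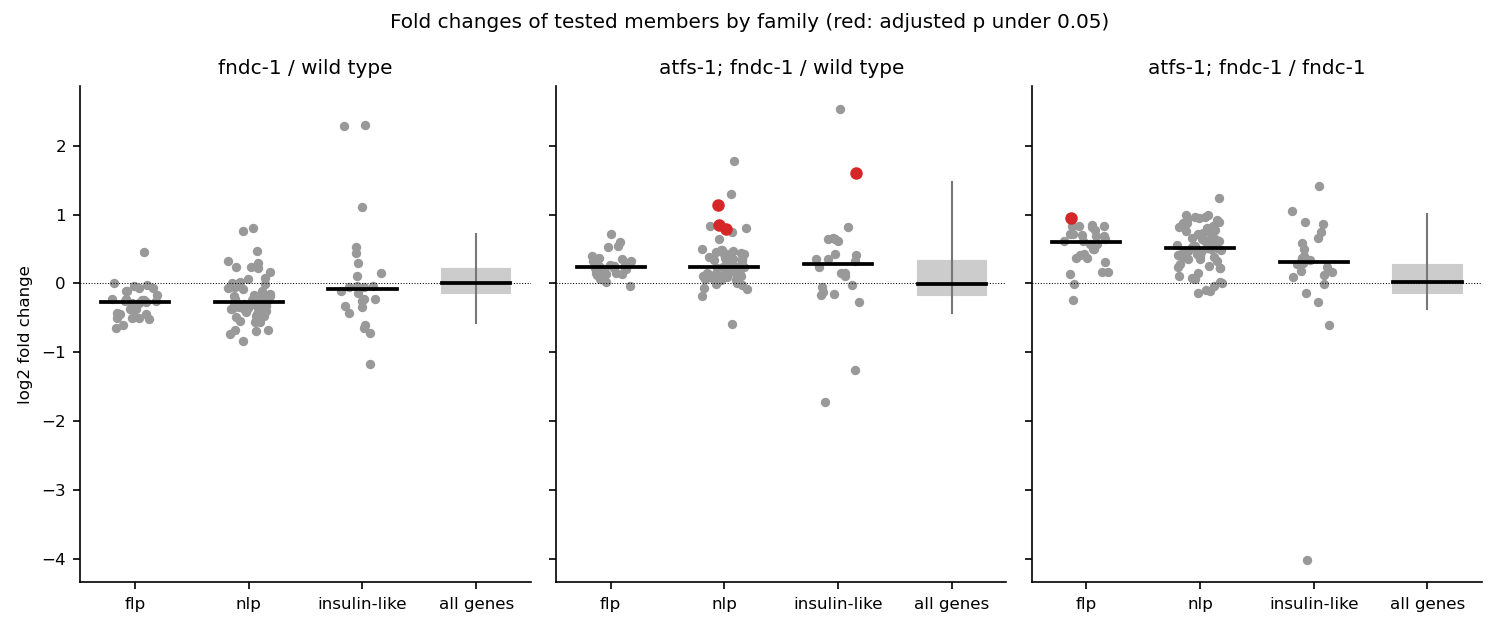
Log2 fold changes of the tested members (30 flp, 63 nlp and 24 insulin-like genes) in the 3 comparisons, with 1 point a gene, red where the adjusted p was under 0.05 and black lines at the family medians; the grey box holds the middle of all genes tested (quartiles) and its line the 5th to 95th percentiles. The family medians lie above 0 for the double mutant against fndc-1 (0.59, 0.51 and 0.31), and ins-19 lies at -4.01.

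Of the other sleep peptide genes, flp-13 came nearest to the threshold in this comparison. The gene flp-13 had 3.36, 3.86, 2.24, 3.78 and 3.42 CPM in the double mutant, 1.91, 1.78, 2.48, 1.58 and 1.57 CPM in fndc-1, and 3.39, 2.66, 2.64, 2.64 and 1.94 CPM in wild type. Double-mutant library 3 lay below fndc-1 library 3, and the other libraries of these strains did not cross. The difference was 0.84 on the log2 scale (SE 0.19, adjusted p = 0.0540, edgeR). It passed without fndc-1 library 3, double-mutant library 3 or wild-type library 1 (lowest adjusted p = 0.0190 over the leave-one-out fits).

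The other ALA peptides overlapped more. The gene flp-24 averaged 8.69 ± 2.38 CPM in the double mutant, 5.83 ± 0.89 CPM in fndc-1 and 6.96 ± 1.27 CPM in wild type (SD, n = 5 each), with log2 0.58 against fndc-1 (SE 0.19, adjusted p = 0.259). The gene nlp-8 averaged 4.64 ± 1.34, 3.53 ± 0.35 and 4.93 ± 1.22 CPM in the same order. The sleep peptide gene of the RIA neuron, nlp-22, was not tested: it had 0.0348 CPM in double-mutant library 4, 0.0218 CPM in wild-type library 2 and 0 in the other 13 libraries.

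Among peptides of locomotion and foraging, flp-1 had 8.37, 12.99, 6.597, 11.3 and 10.7 CPM in the double mutant, 5.06, 6.53, 7.20, 4.39 and 4.52 CPM in fndc-1, and 10.4, 8.32, 7.18, 7.83 and 5.38 CPM in wild type. Its value on the log2 scale was 0.85 in the double mutant against fndc-1 (SE 0.21, adjusted p = 0.0901, edgeR), and it passed without double-mutant library 3 (adjusted p = 0.0414). The genes flp-18 and flp-21 encode ligands of the receptor NPR-1. The level of flp-18 was 7.52 ± 2.09 CPM in the double mutant, 4.65 ± 1.05 CPM in fndc-1 and 6.23 ± 1.40 CPM in wild type (log2 0.69 against fndc-1, SE 0.22, adjusted p = 0.217, edgeR). That of flp-21 was 1.46 ± 0.52, 0.932 ± 0.270 and 1.33 ± 0.32 CPM (log2 0.65, SE 0.28, adjusted p = 0.401, edgeR). Both had the same order of strain means as flp-1, with overlapping libraries.

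Other members with studied roles also had their lowest mean in fndc-1. The cholecystokinin-like gene nlp-12, of the proprioceptive DVA neuron, had 5.39 ± 1.86 CPM in the double mutant, 3.46 ± 0.79 CPM in fndc-1 and 3.97 ± 1.17 CPM in wild type. The gene nlp-49 had 10.4 ± 1.9, 6.78 ± 1.28 and 9.44 ± 2.78 CPM, and nlp-21 had 7.50 ± 2.16, 4.10 ± 0.85 and 5.31 ± 1.57 CPM. Libraries of nlp-21 did not overlap between the double mutant and fndc-1 (log2 0.87, SE 0.24, adjusted p = 0.133, edgeR). The narrowest spread among the named nlp genes that did not overlap was in nlp-9, with 4.28, 5.12, 4.47, 5.44 and 5.28 CPM in the double mutant and 2.87, 3.41, 4.04, 2.81 and 2.97 CPM in fndc-1, a difference of 0.61 on the log2 scale (SE 0.17, adjusted p = 0.132, edgeR).

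The genes flp-5 and flp-9 had 5.25 ± 1.64 and 11.7 ± 4.2 CPM in the double mutant, 3.08 ± 0.32 and 6.57 ± 1.21 CPM in fndc-1, and 3.64 ± 0.72 and 7.70 ± 1.84 CPM in wild type. Both were highest in double-mutant library 2, with 7.59 and 17.6 CPM. The largest log2 fold change against fndc-1 among the named nlp genes was that of nlp-63, at 1.24 (SE 0.34, adjusted p = 0.136, edgeR), with 0.249 to 0.794 CPM in the double mutant, 0.136 to 0.290 CPM in fndc-1 and 0.197 to 0.390 CPM in wild type. The egg-laying peptide genes nlp-3 and nlp-7, which promote and restrain it, had 2.29 ± 0.43 and 5.76 ± 1.59 CPM in the double mutant, 1.78 ± 0.62 and 6.34 ± 1.69 CPM in fndc-1, and 2.40 ± 0.62 and 5.38 ± 0.97 CPM in wild type.

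Most of the 7 members that averaged above 10 CPM did not have their lowest level in fndc-1. In fndc-1 against wild type nlp-24, nlp-77, flp-6, nlp-40 and nlp-36 had log2 fold changes of 0.76, 0.47, 0.46, 0.07 and 0.01. The gene flp-6 had 20.2, 32.9, 18.4, 11.7 and 23.7 CPM in the double mutant, 26.7, 29.6, 26.8, 20.7 and 22.3 CPM in fndc-1, and 22.9, 12.4, 25.2, 12.1 and 19.2 CPM in wild type. Its lowest libraries were double-mutant library 4 and wild-type libraries 2 and 4, which were also the libraries with the highest sperm scores in their strains (2.41, 0.82 and 0.52). Its log2 fold change was -0.24 in the double mutant against fndc-1 (SE 0.25, adjusted p = 0.663) and 0.46 in fndc-1 against wild type (SE 0.26, adjusted p = 0.446, edgeR). With the sperm score as a covariate, flp-6 passed the threshold in the double mutant against wild type (log2 0.83, adjusted p = 0.0200) and in fndc-1 against wild type (log2 0.84, adjusted p = 0.0118, edgeR). The intestinal gene nlp-40 averaged 169 ± 48 CPM in the double mutant, 157 ± 38 CPM in fndc-1 and 150 ± 15 CPM in wild type. For nlp-40 the double mutant against fndc-1 gave 0.11 on the log2 scale (95% interval -0.26 to 0.47, adjusted p = 0.795, edgeR).

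Within the insulin-like family, ins-19 had the widest range. This gene (II:3126037-3126441, minus strand) had 0.0535, 0.311, 0.134, 0 and 0.219 CPM in the double mutant, 3.42, 3.69, 4.28, 0.246 and 0.0970 CPM in fndc-1, and 0.595, 0.392, 0.208, 0.465 and 0.722 CPM in wild type. In counts these were 0 to 18 per double-mutant library, 168, 184, 207, 14 and 5 in fndc-1 libraries 1 to 5, and 11 to 44 per wild-type library. Libraries 1 to 3 of fndc-1 were high, and libraries 4 and 5 lay within or below the range of the other strains.

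The log2 fold change of ins-19 was -4.01 in the double mutant against fndc-1 (SE 0.96, adjusted p = 0.0714, edgeR), and no other gene tested had a lower one in this comparison. It passed the threshold without fndc-1 library 4 or 5 (lowest adjusted p = 0.0254), where the low libraries of its strain are left out in part, and with DESeq2. Set against wild type, it was -1.72 in the double mutant (SE 0.93, adjusted p = 0.289) and 2.29 in fndc-1 (SE 0.87, adjusted p = 0.219, edgeR). Its neighbour ins-31, in the same run on chromosome II and outside the rule for named genes, had 2.55, 0, 0.594, 0.157 and 0 CPM in the double mutant, 0.753, 0.321, 0.455, 1.27 and 0 CPM in fndc-1, and 0.164, 0, 0, 0 and 0.378 CPM in wild type. The high libraries of ins-31 were not those of ins-19.

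The intestinal agonist gene ins-7 split in the same libraries of fndc-1. It had 0.375, 3.55, 0.460, 1.08 and 1.06 CPM in the double mutant, 1.99, 1.48, 1.70, 0.422 and 0.407 CPM in fndc-1 libraries 1 to 5, and 0.842, 0.871, 0.548, 1.36 and 0.542 CPM in wild type. On the log2 scale it stood at 0.12 in the double mutant against fndc-1 (SE 0.59, adjusted p = 0.927, edgeR). The strains overlapped in all comparisons of this gene.

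The agonist genes ins-4 and ins-6, which act with daf-28 against dauer arrest, did not separate the strains. The level of ins-4 was 0.789 ± 0.271 CPM in the double mutant, 0.625 ± 0.278 CPM in fndc-1 and 0.950 ± 0.479 CPM in wild type, and that of ins-6 was 0.786 ± 0.277, 0.597 ± 0.029 and 0.614 ± 0.125 CPM (SD, n = 5 each). The antagonist genes ins-1 and ins-18 were also close, with ins-1 at 0.588 ± 0.164, 0.592 ± 0.119 and 0.638 ± 0.177 CPM and ins-18 at 0.773 ± 0.264, 0.599 ± 0.102 and 0.805 ± 0.345 CPM. For ins-1 the double mutant against fndc-1 gave a log2 fold change of -0.01 with a 95% interval of -0.52 to 0.50, so the data do not tell apart differences inside that interval.

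The insulin-like genes with the highest levels per kb had overlapping strains. The gene ins-34 had 4.36 ± 1.82 CPM in the double mutant, 4.79 ± 0.84 CPM in fndc-1 and 4.43 ± 0.98 CPM in wild type, and ins-17 had 5.09 ± 1.17, 4.17 ± 0.73 and 4.60 ± 1.13 CPM. The gene ins-27 had 2.05, 4.62, 1.53, 4.84 and 2.71 CPM in the double mutant, against 1.44 to 2.40 CPM in fndc-1 and 1.58 to 2.7504 CPM in wild type. Its high libraries were double-mutant libraries 2 and 4. At the low end, ins-26 had 0.857, 1.40, 0.460, 1.03 and 0.996 CPM in the double mutant, 0.346, 0.601, 0.414, 0.299 and 0.116 CPM in fndc-1, and 0.476 to 1.44 CPM in wild type (log2 1.41 against fndc-1, SE 0.41, adjusted p = 0.163, edgeR). The gene ins-12 had 0.113 ± 0.096 CPM in the double mutant, 0.173 ± 0.064 CPM in fndc-1 and 0.273 ± 0.129 CPM in wild type, with its lowest mean in the double mutant (log2 -1.26 against wild type, SE 0.55, adjusted p = 0.210, edgeR). For ins-35 the means were 0.468 ± 0.343 CPM in the double mutant, 0.224 ± 0.091 CPM in fndc-1 and 0.374 ± 0.280 CPM in wild type. The genes ins-11 and ins-39 stayed below 0.0829 CPM in every library, too low to be tested.

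The machinery around these peptides was examined with lists of genes. Of 13 propeptide processing and breakdown genes none passed in edgeR in any comparison. At an unadjusted p under 0.05 there were 1, 1 and 4 of them, against 21.3%, 14.9% and 11.4% of all genes, in the order of the next sentence. The median log2 fold changes were 0.06 (double mutant against wild type), -0.04 (fndc-1 against wild type) and -0.03 (double mutant against fndc-1). The convertase gene egl-3 had 38.2 ± 13.5 CPM in the double mutant, 29.5 ± 3.6 CPM in fndc-1 and 37.6 ± 7.5 CPM in wild type. The carboxypeptidase gene egl-21 had 43.6 ± 7.6, 35.5 ± 3.2 and 39.6 ± 7.2 CPM. Both had their lowest mean in fndc-1, with log2 0.38 and 0.29 in the double mutant against fndc-1 (SE 0.21 and 0.13, adjusted p = 0.509 and 0.427, edgeR).

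Of 15 genes of dense-core vesicle biogenesis, transport and release, 1 passed, rund-1, which rose in the double mutant against wild type by 0.53 (SE 0.13, adjusted p = 0.0296, edgeR), at 5.08 ± 0.34 CPM in the double mutant, 4.85 ± 0.91 CPM in fndc-1 and 3.51 ± 0.24 CPM in wild type. In that comparison unc-108 and eipr-1 lay lower in the double mutant with no overlap (against 2.22% of all genes), neither past the threshold. The list had 4, 2 and 0 genes at an unadjusted p under 0.05 (against 21.3%, 14.9% and 11.4% of all genes) and medians of -0.15, 0.08 and -0.15 in the same order of comparisons. These genes are long, with a median of 2591 exon bases. Their score was -0.64 in double-mutant library 2 and -0.06 to 0.17 in the other libraries of that strain. The part of the length trend was not tested. Of 96 neuropeptide receptor genes 83 were tested and none passed in edgeR, with 9, 9 and 7 at an unadjusted p under 0.05 (against 21.3%, 14.9% and 11.4% of all genes) and medians of 0.09, 0.15 and -0.06. In the last of these comparisons 35 of 83 receptor genes had a log2 fold change above 0, beside 28 of 30 flp and 59 of 63 nlp genes. The 6 tested peptide genes outside the name rule (of 7 listed) had medians of 0.04, -0.47 and 0.58, with none past the threshold. At an unadjusted p under 0.05 there were 0, 3 and 2 of these 6, against the same 21.3%, 14.9% and 11.4% of all genes.

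The core of the insulin receptor pathway, 13 genes, held none past the threshold in edgeR, with 2, 1 and 0 at an unadjusted p under 0.05 (against 21.3%, 14.9% and 11.4% of all genes) and medians of -0.27, -0.09 and -0.12. The median length of these genes was 2423 exon bases. Their score was -0.85 in double-mutant library 2 and -0.05 to 0.08 in the other libraries of that strain, and the part of length was not tested. The receptor gene daf-2 had 118, 10.97, 132, 111 and 106 CPM in the double mutant, 105 to 134 CPM in fndc-1 and 105 to 157 CPM in wild type. Double-mutant library 2 lay below every other library for this gene, and daf-2 has 8296 exon bases, in the longest class of the plot of length. The gene of the FOXO factor, daf-16, with 3685 exon bases, had 153, 56.5, 165, 167 and 161 CPM in the double mutant, 142 to 160 CPM in fndc-1 and 142 to 221 CPM in wild type. The log2 fold changes of daf-2 and daf-16 were -0.52 and -0.36 in the double mutant against wild type (SE 0.41 and 0.22, adjusted p = 0.463 and 0.344, edgeR).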

How the data were processed

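Messenger RNA of whole Caenorhabditis elegans was sequenced in 15 libraries, 5 of each of 3 strains. The authors deposited raw counts per gene, not normalized. The submitters' processing notes name featureCounts of Subread 1.6.1, the aligner STAR 2.6.0c, Trimmomatic 0.36 and the genome WBcel235. Per the labels' protocols, both a TruSeq RNA and a TruSeq Stranded mRNA kit are named. Not given in the sources used here are the strand setting, the annotation release and the treatment of multiply mapped reads, so counts of overlapping genes are uncertain.

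Genes were kept by filterByExpr with strain as group (15032 genes). CPM used TMM-scaled totals. Strains were compared in edgeR 4.0.16 (R 4.3.3) by its quasi-likelihood F-test, two-sided, over all 15 libraries and with no covariate. Adjusted p-values (Benjamini-Hochberg) cover every gene tested, and the threshold was 0.05. The SE is the absolute log2 fold change over the root of F, and 95% intervals use the normal quantile. As the labels describe no separate cultures, the p-values reflect only how these samples vary, in part perhaps technically. Centred log2 CPM used a prior count of 2. Gene positions and merged exon lengths came from Ensembl release 115 (WBcel235), which matched 134 of 141 members and 18875 of 20191 genes by name. The 7 members without a match (nlp-10, nlp-37, nlp-38, nlp-42, nlp-73, nlp-77 and ins-38) have no position or length here. The removal of the length trend was not applied to them. Replicates of a strain differed by at least 8.07 chi-square units per gene over genes with 50 or more counts, more than sampling noise.

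The members, lists and tests were chosen with earlier results of these data known. Members were named if past the threshold, among the 5 highest per kb of a family, among the 3 smallest p-values of a family and comparison, or by a studied function. The tests were checked on simulated counts, where they called 48 to 54% of 2-fold changes and 16 to 24% of 1.5-fold changes, with 1 to 6 false calls. Members that missed the threshold may therefore still differ between strains. DESeq2 1.42.0 and limma-voom (limma 3.58.1) were alternatives, beside other scaling factors, filters, left-out libraries, a replicate block, a sperm score covariate and a removal of the length trend.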

Additional observations from a re-analysis of the deposited data

Results flagged for a closer look

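Within each strain, the highest and lowest library of every named member and of the family scores were compared with the other 4. Of 145 sets of 5 libraries, 11 had 1 library far from the rest. In 2 of these, both of nlp-22, the other 4 libraries were at 0, so any count above 0 stands apart; beside the other 9, chance alone gives about 1 in 20. Of the 11, 5 were in double-mutant library 2, which has the steepest of the length trends. It held 103.4 CPM of nlp-24 (the others 40.1 to 58.5), 18.27 CPM of nlp-26 (9.63 to 11.8), 99.38 CPM of nlp-36 (46.6 to 56.5), 8.504 CPM of nlp-7 (4.51 to 5.51) and 3.554 CPM of ins-7 (0.375 to 1.08).

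In double-mutant library 4 the level of ins-35 was 1.063 CPM, and 0.219 to 0.411 CPM in the other libraries of the strain. In wild-type library 1 ins-35 had 0.8621 CPM (0.196 to 0.354 in the others), and the insulin-like score was 0.4113 (-0.27 to -0.08 in the others). In fndc-1 library 3 flp-11 had 2.69 CPM, and 2.18 to 2.33 CPM in the other fndc-1 libraries. The sleep peptide gene nlp-22 had 0.03484 CPM in double-mutant library 4 and 0.02178 CPM in wild-type library 2, with 0 in the other 4 libraries of each strain.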

How the results depend on the processing

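The counts of calls, the family medians and 49 log2 fold changes of 29 members were recomputed under 27 alternatives, except that 8 of these members did not pass the filter of at least 1 CPM. Of the alternatives 4 were added after the data were seen (the sperm score as a covariate, both pairs of left-out libraries and the removal of the length trend). Calls of members numbered 0 (fndc-1 against wild type), 4 (double mutant against wild type) and 1 (double mutant against fndc-1). DESeq2 gave 2, 6 and 11. With only the strains compared in the fit the counts were 1, 1 and 0. Without double-mutant libraries 2 and 4 they were 3, 2 and 0. With no filter on low counts the second was 2 and the last 0. The last was also 0 with upper-quartile factors, with limma-voom, with the sperm covariate and without wild-type libraries 2 and 4, and 2 with the length trend removed. The first was 1 with the sperm covariate and 1 with the length trend removed. Leaving out 1 library in turn gave 0 to 1, 2 to 4 and 0 to 4. Of the 49 fold changes 7 changed sign, and none of the 7 passed the threshold before or after the turn. In the double mutant against fndc-1, without double-mutant libraries 2 and 4, nlp-24 turned to -0.0182, nlp-40 to -0.0145 and ins-7 to -0.946. With the length trend removed nlp-40 turned to -0.0636 and ins-7 to -0.279; ins-7 also turned to -0.0162 with limma-voom and -0.0548 with the replicate block. For ins-1 it turned to 0.0715 with upper-quartile factors and 0.0146 with the sperm covariate. In the double mutant against wild type flp-6 turned to -0.0613 without wild-type libraries 2 and 4. Leaving out 1 library in turn gave -0.00713 to 0.400 for flp-6 there. In fndc-1 against wild type it gave -0.0553 to 0.118 for nlp-36 and -0.0261 to 0.174 for nlp-40. In the double mutant against fndc-1 it gave -0.0851 to 0.213 for nlp-40, -0.701 to 0.383 for ins-7 and -0.119 to 0.0885 for ins-1. Without double-mutant libraries 2 and 4 the insulin-like median in the double mutant against wild type moved to -0.0928. The cause of these changes was not tested.

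Replicate numbers did not pair the libraries: correlations of same-numbered deviations between strains ran from -0.591 to 0.664. With the replicate number as a block the counts of calls were 0, 2 and 0. Members with few counts limit what can be seen: 65 of 141 averaged under 1 CPM, and 24 were not tested.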
